A study of Mus musculus with 24 samples.

Results

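The 5 posterior genes of this stretch of mouse chromosome 6 are Hoxa9, Hoxa10, Hoxa11, Hoxa13 and the homeobox gene Evx1, which lies next to Hoxa13 at the posterior end of the Hoxa cluster. Their chromatin was read from 7 lists of ChIP-seq peaks. A peak was counted here if it overlapped the mm10 body of any of these genes or the 20 kb on either side, and it was assigned to the nearest gene start. This gave 227 of the 368246 peaks of all lists. Of these, 16 were WT H3K27ac peaks, 22 Shh-/- H3K27ac, 55 WT H3K4me2, 56 Shh-/- H3K4me2, 57 Shh-/- H3K27me3, 10 purmorphamine H3K27ac and 11 control H3K27ac peaks. The window had 2 pieces, chr6:52203100-52280880 and chr6:52293498-52338378, which together held 122662 bp.

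Forelimb buds came from wild-type (WT) Swiss Webster embryos with 32 to 35 somites, and from stage-matched Shh-/- embryos, which carry a null allele of Sonic hedgehog in every cell. According to the study's methods, WT samples included heterozygous littermates and forelimbs of several embryos were pooled. H3K27ac was also mapped in NIH3T3 cells, mouse fibroblasts of an established Hedgehog-responsive line, kept for 48 h with 400 nM purmorphamine, an agonist of the pathway, or with DMSO (the control). The labels name LIF in the medium of both. The authors pooled both replicates of a condition in 1 list, so replicate spread could not be measured, and no test was made: all comparisons below are descriptions of these 7 lists.

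Hox genes lie along the cluster in the order in which they are used along the body and the limb. Hoxa9 and Hoxa10 act in the upper part of the limb, Hoxa11 is needed for the forearm, and Hoxa13 acts last and is needed for the digits. Evx1 encodes a homeobox transcription factor related to even-skipped of the fly. Histone marks show the state of such loci. H3K27ac is found at active enhancers and promoters, H3K4me2 at active as well as poised regulatory elements, and H3K27me3 is laid down by the Polycomb complex at genes kept silent. H3K27ac and H3K27me3 are carried by the same lysine, so that one histone tail cannot hold both, but a whole limb bud holds many cells. Fewer cells with a mark and less mark per cell cannot be told apart in such pooled tissue.

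All gene positions are those of the GENCODE annotation of mm10. Hoxa9 (ENSMUSG00000038227.15) lies at chr6:52223100-52231089, Hoxa10 (ENSMUSG00000000938.11) at chr6:52231197-52240854, Hoxa11 (ENSMUSG00000038210.10) at chr6:52242106-52245810 and Hoxa13 (ENSMUSG00000038203.18) at chr6:52257694-52260880, all on the minus strand. Evx1 (ENSMUSG00000005503.8) lies at chr6:52313498-52318378 on the plus strand. The Hoxa9 record of the annotation reaches beyond the main start at base 52227370, and its end was used for the assignment. The 20 kb below Hoxa9 also hold Hoxa5, Hoxa6, Hoxa7 and a distal start of Hoxa3, and peaks there were assigned to Hoxa9.

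The 250 bases before each main gene start are shown first, because peaks of the lists over or beside them make up much of what follows. They were taken from RefSeq (GRCm38.p6), whose promoter table held all 5 genes in 6 rows, since Hoxa10 has a second start. They run 5′ to 3′ on the strand of the gene, and capitals mark CpG dinucleotides. The Hoxa11 sequence overlaps an exon of Hoxa11os and the Evx1 sequence an exon of Evx1os, noncoding genes of the opposite strand.
Hoxa9, chr6:52227371-52227620, minus strand: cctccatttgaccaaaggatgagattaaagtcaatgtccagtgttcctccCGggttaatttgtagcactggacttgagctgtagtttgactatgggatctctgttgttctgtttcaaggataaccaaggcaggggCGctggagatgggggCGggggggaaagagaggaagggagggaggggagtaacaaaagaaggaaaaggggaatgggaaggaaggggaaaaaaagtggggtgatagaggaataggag
Hoxa10, chr6:52240855-52241104, minus strand: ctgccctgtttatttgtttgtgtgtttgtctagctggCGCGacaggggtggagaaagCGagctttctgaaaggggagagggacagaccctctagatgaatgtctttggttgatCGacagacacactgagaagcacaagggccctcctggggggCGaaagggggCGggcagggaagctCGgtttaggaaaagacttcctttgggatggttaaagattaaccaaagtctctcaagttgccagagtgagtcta
Hoxa11, chr6:52245811-52246060, minus strand: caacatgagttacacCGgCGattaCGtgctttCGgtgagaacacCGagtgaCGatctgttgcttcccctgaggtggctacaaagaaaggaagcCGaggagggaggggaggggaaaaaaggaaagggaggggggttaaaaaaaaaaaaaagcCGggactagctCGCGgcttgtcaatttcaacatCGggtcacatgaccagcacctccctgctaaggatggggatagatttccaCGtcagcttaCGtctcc
Hoxa13, chr6:52260881-52261130, minus strand: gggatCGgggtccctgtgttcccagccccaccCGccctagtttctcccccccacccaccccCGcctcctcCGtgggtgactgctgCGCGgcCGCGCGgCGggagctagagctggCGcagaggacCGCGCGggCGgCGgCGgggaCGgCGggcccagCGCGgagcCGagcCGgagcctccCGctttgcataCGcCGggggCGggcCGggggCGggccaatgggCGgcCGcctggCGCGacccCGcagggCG
Evx1, chr6:52313248-52313497, plus strand: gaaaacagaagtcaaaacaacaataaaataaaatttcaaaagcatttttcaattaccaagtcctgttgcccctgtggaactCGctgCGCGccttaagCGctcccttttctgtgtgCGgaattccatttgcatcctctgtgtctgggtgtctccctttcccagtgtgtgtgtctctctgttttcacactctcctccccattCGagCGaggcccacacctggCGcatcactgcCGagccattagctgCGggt
The Hoxa13 sequence was the richest of these in CpG, with 35 CpG in 250 bases and a G+C content of 80.0%. Hoxa9 had 3 CpG, Hoxa10 7, Evx1 10 and Hoxa11 13. Over the full RefSeq promoter of 300 bases, Hoxa13 had more CpG than 98.1% of the 32851 promoters in the table, against 65.4% for Hoxa11, 60.4% for both the main Hoxa10 start and Evx1, and 31.4% for Hoxa9. The window as a whole held 24.3 CpG per kb, against 7.97 per kb over chromosome 6.

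Limb H3K27ac covered Hoxa9, Hoxa10 and Hoxa11 nearly without a break and stopped before Hoxa13. H3K27me3, listed here for Shh-/- limb buds alone, covered Hoxa13 and Evx1 and thinned out towards Hoxa9. H3K4me2 was present on both sides. In NIH3T3 cells H3K27ac stopped below Hoxa9, but for a small peak in Hoxa10.

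**Figure D1:**
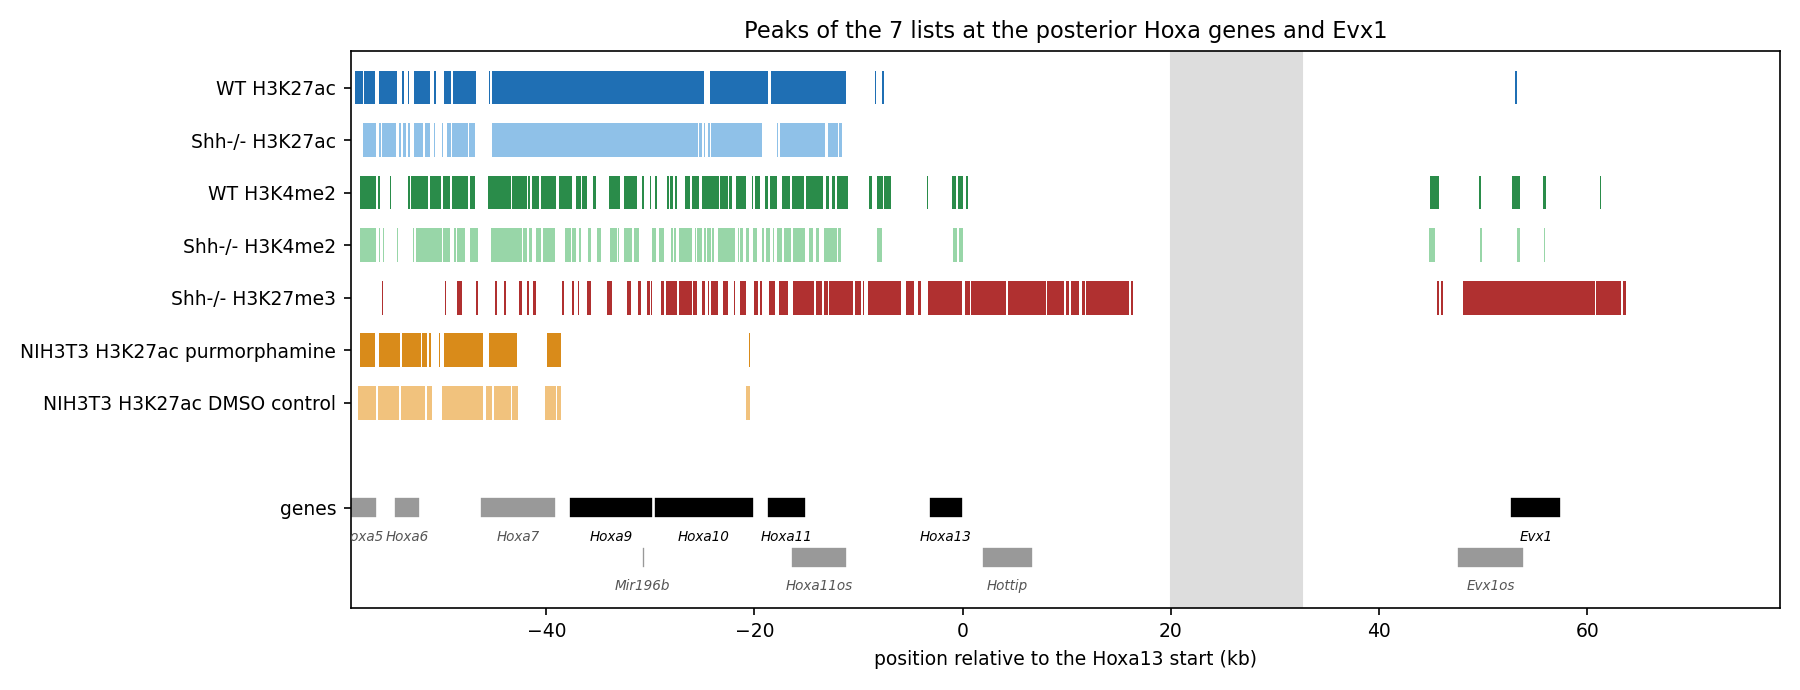
Peaks of the 7 lists (rows) along the locus, plotted as bars against the distance in kb from the Hoxa13 start, with the 5 genes in black and other genes in grey below (the leftmost box, cut at the edge, is Hoxa5). The grey band is the 12617 bp between the 2 pieces of the window, which were not counted. Limb H3K27ac fills the stretch from Hoxa7 to Hoxa11, and Shh-/- H3K27me3 that from Hoxa11 to beyond Hoxa13 and around Evx1. The NIH3T3 lists end below Hoxa9 but for a small peak in Hoxa10.

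Read along the chromosome, WT H3K27ac peaks covered 96.9% of the base pairs from Hoxa9 to the end of Hoxa10, 90.6% of the Hoxa11 body and 35.3% of the stretch between Hoxa11 and Hoxa13. In Shh-/- limb buds the shares were 95.5%, 70.5% and 26.4%. Neither list held a peak in the Hoxa13 body or in the 20 kb above it. H3K27me3 in Shh-/- limb buds ran the other way. It covered 11.0% of the 20 kb below Hoxa9, 40.0% of Hoxa9 to Hoxa10, 77.2% of the Hoxa11 body and 77.3% of the stretch up to Hoxa13. The Hoxa13 body was covered to 99.0% and the Evx1 body to 100%, with 74.8% of the 20 kb above Hoxa13.

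**Figure D2:**
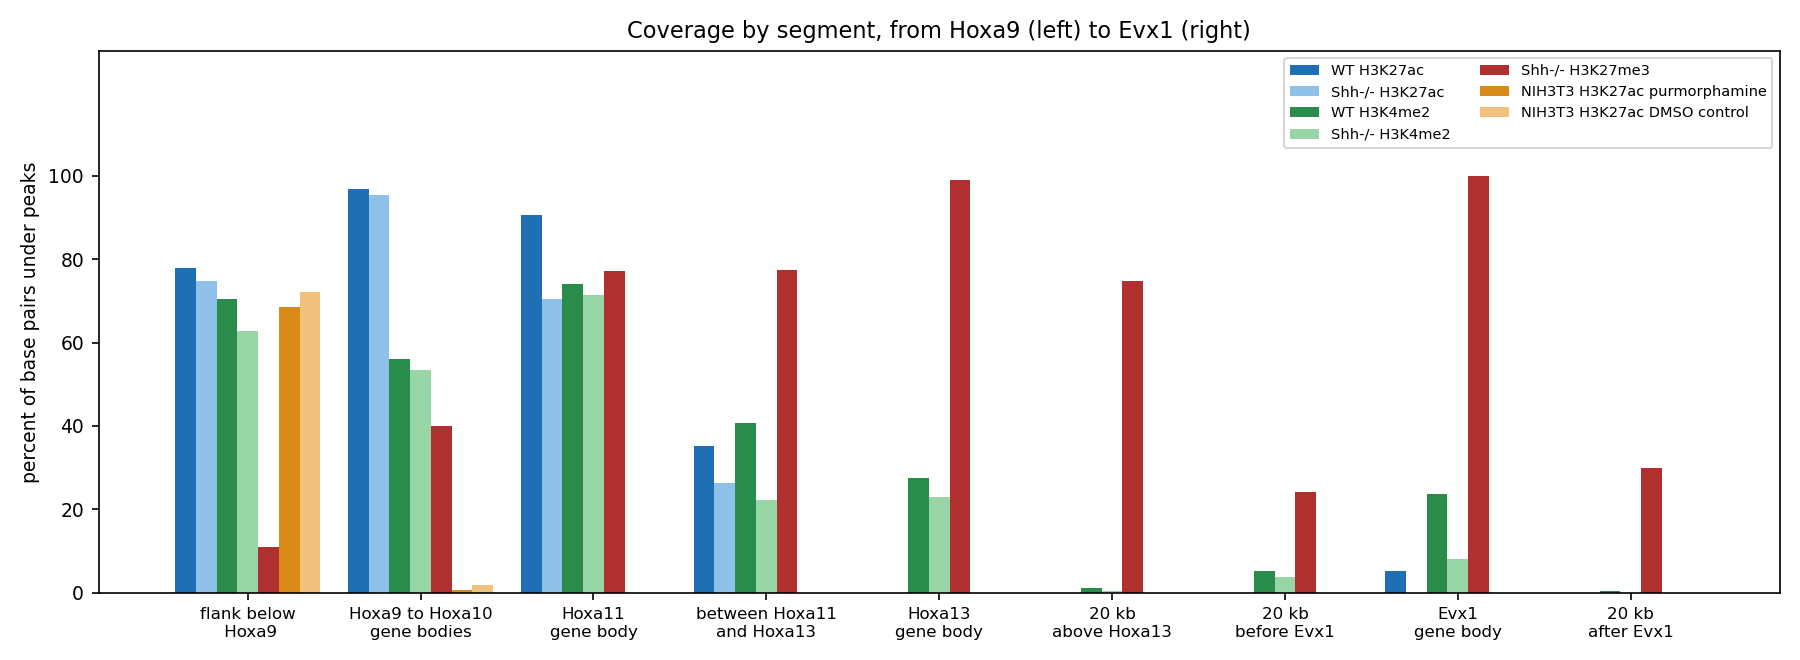
Percent of the base pairs of each segment that lie under peaks (vertical axis) for the 7 lists (bar colours), with segments from the 20 kb below Hoxa9 on the left to the 20 kb after Evx1 on the right. From Hoxa9 and Hoxa10 to Hoxa13, H3K27ac falls from 96.9% to 0 in WT and from 95.5% to 0 in Shh-/-. H3K27me3, of Shh-/- limb buds alone, climbs from 11.0% below Hoxa9 to 99.0% over Hoxa13 and 100% over Evx1.

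Hoxa9 lay within a single acetylated block. In WT limb buds the block spanned chr6:52215700-52236049, a width of 20350 bp, and took in the starts of Hoxa7, Hoxa9 and the second start of Hoxa10 as well as Mir196b, a microRNA gene of the Hox cluster. It was the widest of all 49679 WT H3K27ac peaks. Its maximum log2 ratio of ChIP to input, a height as deposited by the authors, was 6.49, and it ranked 277 in the list, where rank 1 is the peak with the highest score. The Shh-/- list had almost the same block, chr6:52215650-52235449, 19800 bp wide, with a log2 ratio of 6.33 and rank 183. This too was the widest peak of its list, of 43916. Of the WT list, 4 peaks were 12800 bp or wider and of the Shh-/- list 3.

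**Figure D3:**
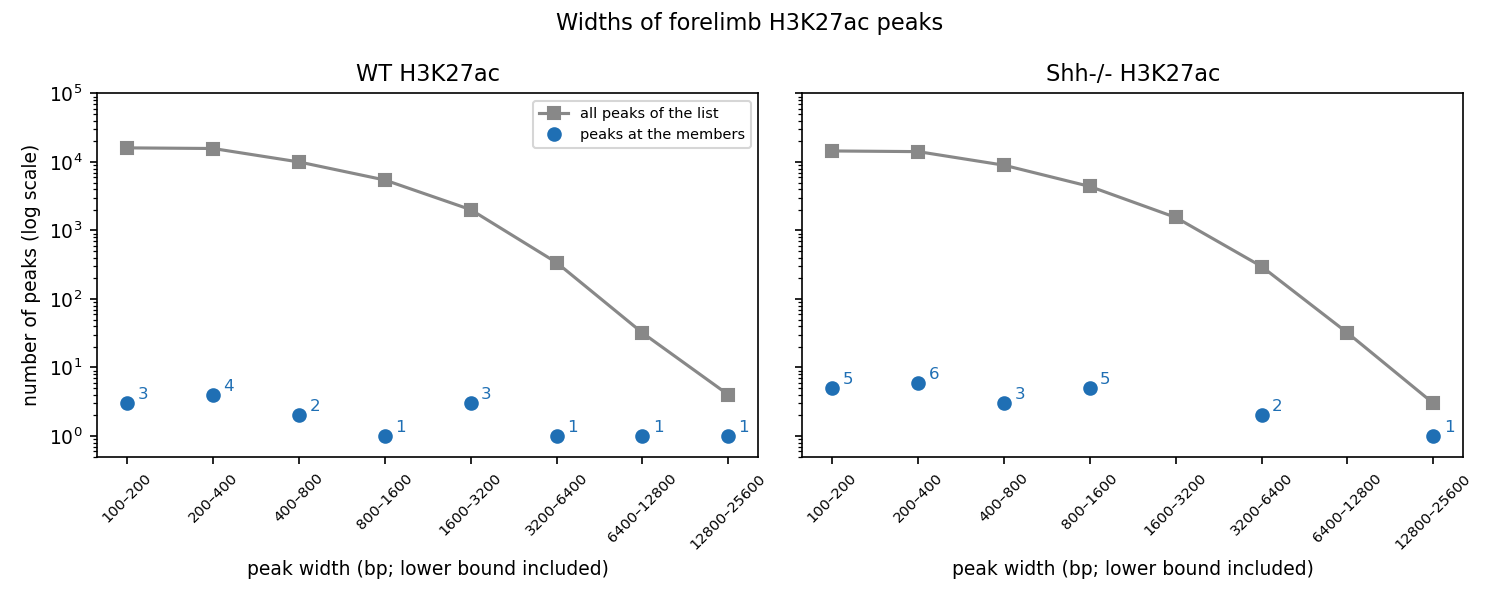
Number of peaks (vertical axis, log scale) by peak width in bp (horizontal axis, doubling bins) for WT and Shh-/- H3K27ac. Grey squares joined by a line are all peaks of a list and blue dots, with their counts, the peaks in the window. The widest bin holds 4 WT and 3 Shh-/- peaks in all, of which 1 each is the block over Hoxa9.

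Within this block the H3K4me2 peaks at Hoxa9 were far narrower than the block itself. Those over the main start of Hoxa9 were 1100 bp wide in WT and 600 bp in Shh-/-, above the list medians of 450 and 400 bp. At its main start, base 52227370, a WT H3K4me2 peak at chr6:52226900-52227999 had a log2 ratio of 4.02 (rank 4603), and a Shh-/- peak at chr6:52227050-52227649 had 3.39 (rank 14373). A second Shh-/- peak within 1 kb, chr6:52228350-52229149, was higher, with 3.96 (rank 5743). Peaks covered 56.0% of the base pairs within 1 kb of this start in the WT list and 36.0% in the Shh-/- list. H3K27me3 was thin here. A peak of 400 bp at chr6:52226750-52227149, with a log2 ratio of 2.75 and rank 6408 of 20830, was the only one within 1 kb of the start, and covered 20.0% of it. Inside the Hoxa9 body each genotype had an H3K4me2 peak of the better-ranked 50% of its list that the other genotype did not share: chr6:52225400-52225649 in WT (log2 ratio 3.20, rank 16335) and chr6:52225750-52226099 in Shh-/- (3.73, rank 8810). Each lay 101 bp from the nearest peak of the other genotype.

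In WT the peak over the main start of Hoxa10 had the highest acetylation of the locus. In Shh-/- the block over Hoxa9 was higher, but it also took in the start of Hoxa7 and the second start of Hoxa10. Only 1 maximum is given per peak, so its place within the block is not known. The WT peak over the main Hoxa10 start, chr6:52236600-52242149, was 5550 bp wide with a log2 ratio of 6.98, and ranked 67 of 49679. The Shh-/- peak, chr6:52236750-52241649, was 4900 bp wide with a log2 ratio of 5.84 and rank 570. The WT value was the higher one, but the 2 lists have their own inputs and depths and no spread to set this against. The 2 small Shh-/- peaks just below it that no WT peak overlapped, at chr6:52236050-52236149 and chr6:52236450-52236599, each adjoined a WT peak with no gap. Between the 2 starts of the gene, the best-ranked WT H3K4me2 peak assigned to Hoxa10, chr6:52235850-52237499, had a log2 ratio of 4.36 and rank 1956, and the best Shh-/- peak, chr6:52237400-52239049, had 4.01 and rank 5171. At the main start H3K4me2 was weaker in both: peaks within 1 kb of it reached log2 ratios of 3.02 in WT and 2.97 in Shh-/-. H3K27me3 peaks at Hoxa10 numbered 8 by the nearest gene start and 13 by the nearest start of any transcript. They were up to 650 and 1250 bp wide, where the median over the whole list was 150 bp. Their highest log2 ratio was 3.26, at chr6:52242250-52242899 in the body of Hoxa11. Ratios reached 2.96 within 1 kb of the second Hoxa10 start and 2.92 within 1 kb of the main start.

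Hoxa11 was the gene with most overlap of all 3 marks. In the Shh-/- lists, H3K27ac, H3K4me2 and H3K27me3 together covered 48.6% of its body, against 22.6% of Hoxa9 to Hoxa10, 15.6% of the stretch from Hoxa11 to Hoxa13 and 0 of the Hoxa13 and Evx1 bodies. Its acetylated peak was wider in WT. There it spanned chr6:52242500-52249699 (7200 bp, log2 ratio 5.88, rank 974), reaching from the body over the start of Hoxa11 and most of Hoxa11os, a long noncoding RNA gene antisense to Hoxa11. In Shh-/- limb buds the main peak spanned chr6:52243300-52247699 (4400 bp, log2 ratio 5.24, rank 1644), followed by 2 smaller ones at chr6:52247900-52248899 (log2 ratio 3.90) and chr6:52249050-52249299 (2.96). H3K4me2 lay on both sides of the start in both genotypes. Inside the gene a WT peak, chr6:52244450-52245649, had a ratio of 4.29 and rank 2366, and a Shh-/- peak, chr6:52244550-52245699, had 3.49 and rank 12762. Outside it a WT peak of 1600 bp, chr6:52245850-52247449, had a ratio of 3.63 and rank 9666, and within its span lay the Shh-/- peaks chr6:52246100-52246499, with 3.79 and rank 8041, and chr6:52246750-52247099, with 4.02 and rank 5084. Over the same start lay an H3K27me3 peak, chr6:52244550-52246599, of 2050 bp with a log2 ratio of 3.57 and rank 1967.

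**Figure D4:**
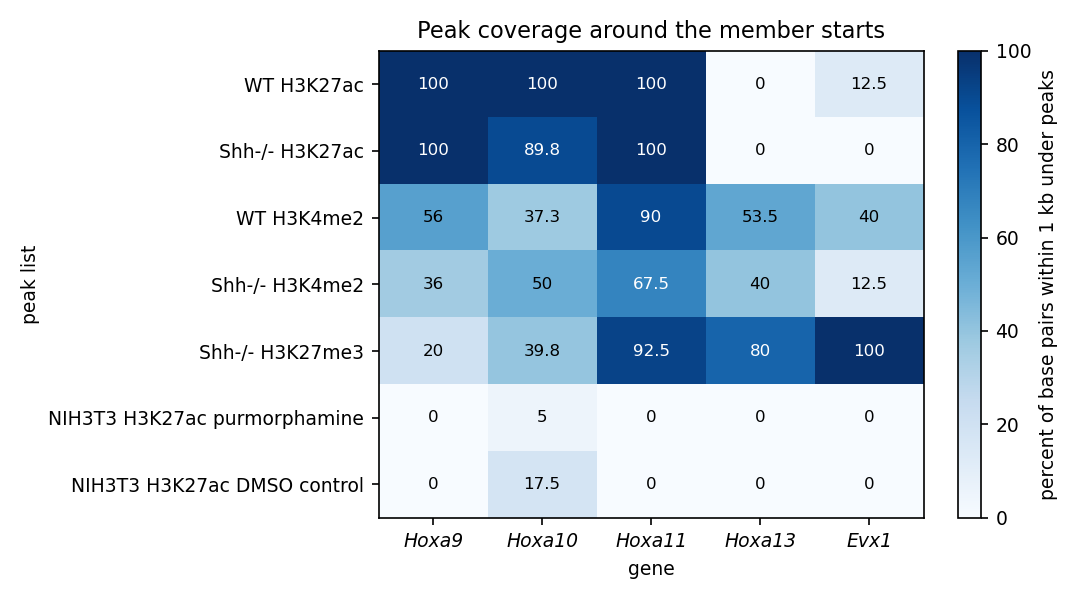
Percent of the base pairs within 1 kb of the main start of each gene (columns) that lie under peaks of each list (rows), with the value printed in each cell and darker blue for higher values. Limb H3K27ac covers 89.8% to 100% at Hoxa9, Hoxa10 and Hoxa11 and 0 at Hoxa13. Shh-/- H3K27me3 covers 20.0% at Hoxa9, 92.5% at Hoxa11, 80.0% at Hoxa13 and 100% at Evx1.

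Between Hoxa11 and Hoxa13 the WT lists covered more base pairs with H3K27ac and H3K4me2 than the Shh-/- lists. The last WT H3K27ac peak before Hoxa13 ended at base 52253299, 4395 bp short of the Hoxa13 body, and the last Shh-/- peak at base 52249299, 8395 bp short of it. This difference in reach rested on 2 small WT peaks, and without them WT H3K27ac ended at base 52249699, close to the Shh-/- end. In this stretch WT H3K27ac peaks covered 4189 bp and Shh-/- peaks 3139 bp, a ratio of 1.33. For H3K4me2 the coverage was 4850 and 2650 bp, a ratio of 1.83. Over all chromosomes the WT lists were also the longer ones, with ratios of 1.18 for H3K27ac and 1.11 for H3K4me2. The WT excess was thus present in both marks and larger here than over the lists as a whole. For H3K27ac it came partly from the wider Hoxa11 peak and partly from these small peaks, which ranked 30968 and 46443 of 49679.

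These small peaks and a nearby WT H3K4me2 peak are printed because they lie past the end of Shh-/- acetylation and had no Shh-/- peak of the same mark. None lies in an annotated exon. The plus strand of the mm10 assembly is given, and capitals mark CpG.
WT H3K27ac, chr6:52252450-52252549: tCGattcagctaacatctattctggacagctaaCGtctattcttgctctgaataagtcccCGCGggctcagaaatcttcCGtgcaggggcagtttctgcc
WT H3K27ac, chr6:52253100-52253299: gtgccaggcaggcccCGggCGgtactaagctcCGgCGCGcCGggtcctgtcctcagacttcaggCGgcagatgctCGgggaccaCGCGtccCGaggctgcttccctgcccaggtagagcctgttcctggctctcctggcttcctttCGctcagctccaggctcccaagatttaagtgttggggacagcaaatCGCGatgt
WT H3K4me2, chr6:52251850-52252149: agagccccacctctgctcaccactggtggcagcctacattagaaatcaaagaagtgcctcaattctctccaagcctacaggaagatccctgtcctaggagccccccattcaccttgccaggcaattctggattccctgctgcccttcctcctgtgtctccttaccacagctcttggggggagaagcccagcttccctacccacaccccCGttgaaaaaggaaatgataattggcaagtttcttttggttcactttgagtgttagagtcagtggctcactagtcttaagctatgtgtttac
The first of them was 100 bp wide with a log2 ratio of 2.52 and the second 200 bp with 2.91, and their nearest Shh-/- H3K27ac peak lay 3151 and 3801 bp away. The H3K4me2 peak had a log2 ratio of 3.19 and ranked 16454 of 36585, in the better-ranked 50% of its list, and the nearest Shh-/- H3K4me2 peak was 551 bp away. All 3 lay within an H3K27me3 peak of the Shh-/- limb bud, chr6:52251800-52254999, which was 3200 bp wide with a log2 ratio of 4.19 and rank 841.

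Hoxa13 had no H3K27ac peak within 1 kb of any of its starts in any list. It did have H3K4me2 in both genotypes. In WT, a peak in its first part at chr6:52259850-52260249 had a log2 ratio of 3.73 (rank 8263) and one over the start at chr6:52260400-52260899 had 2.84 (rank 21916). In Shh-/-, the corresponding peaks were chr6:52259950-52260299 with 3.13 (rank 19009) and chr6:52260500-52260949 with 3.95 (rank 5876). The higher of the pair was therefore the inner peak in WT and the peak over the start in Shh-/-. A further WT peak, chr6:52261200-52261399, with a ratio of 2.49, lay 251 bp from the nearest Shh-/- peak. An H3K27me3 peak of 3300 bp, chr6:52257550-52260849, covered the body up to 31 bp from the start, with a log2 ratio of 4.68, the highest H3K27me3 ratio in the window, and rank 330 of 20830. In the Hoxa13 body 700 bp, or 22.0%, held H3K4me2 and H3K27me3 together in Shh-/- limb buds, while H3K4me2 outside H3K27me3 took 0.973%.

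H3K27me3 continued above Hoxa13. Hottip, a long noncoding RNA gene next to Hoxa13 at chr6:52262775-52267603, lay largely under 2 peaks, chr6:52261700-52265049 (log2 ratio 4.58, rank 412) and chr6:52265200-52268849 (4.46, rank 682). Another, chr6:52272700-52276899, was 4200 bp wide with a ratio of 4.22 and rank 669. Limb H3K4me2 was nearly absent from these 20 kb, with 1.09% covered in WT and 0.345% in Shh-/-. Between the 2 pieces of the window, where peaks were not counted, the lists held 3 H3K27me3 peaks, 2 H3K4me2 peaks per genotype and no H3K27ac peak.

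Evx1 was covered by the widest H3K27me3 peak of the window. It spanned chr6:52308950-52321599, 12650 bp with a log2 ratio of 4.64 and rank 264, and took in the whole gene and most of the antisense gene Evx1os. A second peak followed at chr6:52321700-52324149 with a ratio of 4.20 and rank 954. Both H3K4me2 lists nonetheless had peaks in the gene. In WT these were chr6:52313650-52314449 (log2 ratio 2.51) and chr6:52316600-52316949 (2.54), and in Shh-/- chr6:52314150-52314399 (2.86) and chr6:52316700-52316849 (2.45). They ranked 27584 and 27041 of 36585 in WT and 24212 and 33756 of 38468 in Shh-/-. H3K4me2 covered 23.6% of the Evx1 body in WT and 8.20% in Shh-/-. The WT peaks were wider, and the ratio was higher in Shh-/- at the first and higher in WT at the second.

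The WT list also held an H3K27ac peak in Evx1, the only acetylated peak from Hoxa13 on in any list. It was 250 bp wide, lay in an exon outside the annotated UTRs, had a log2 ratio of 2.96 and ranked 29047 of 49679. The nearest Shh-/- H3K27ac peak lay 64601 bp away. Its sequence, on the plus strand of mm10 with CpG in capitals, is printed because it is the sole sign of acetylation at Evx1.
WT H3K27ac, chr6:52313900-52314149: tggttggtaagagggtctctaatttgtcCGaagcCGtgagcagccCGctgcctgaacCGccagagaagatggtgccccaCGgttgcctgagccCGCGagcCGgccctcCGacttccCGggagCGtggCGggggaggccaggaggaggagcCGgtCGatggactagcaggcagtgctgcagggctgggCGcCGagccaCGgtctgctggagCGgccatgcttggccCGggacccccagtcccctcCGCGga
It held 21 CpG and had a G+C content of 69.6%.

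Before Evx1 lay an H3K4me2 element shared by both genotypes and free of H3K27ac. The WT peak chr6:52305800-52306649 had a log2 ratio of 3.56 (rank 10759) and the Shh-/- peak chr6:52305700-52306249 had 3.24 (rank 17020), with 450 bp in common. These were the best-ranked H3K4me2 peaks assigned to Evx1. The Shh-/- peak ended before the small H3K27me3 peak at chr6:52306450-52306599 (ratio 2.31, FDR 0.104). In the Shh-/- lists H3K4me2 thus stood here outside H3K27me3. The WT H3K4me2 peak spanned the place of that H3K27me3 peak.

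**Figure D5:**
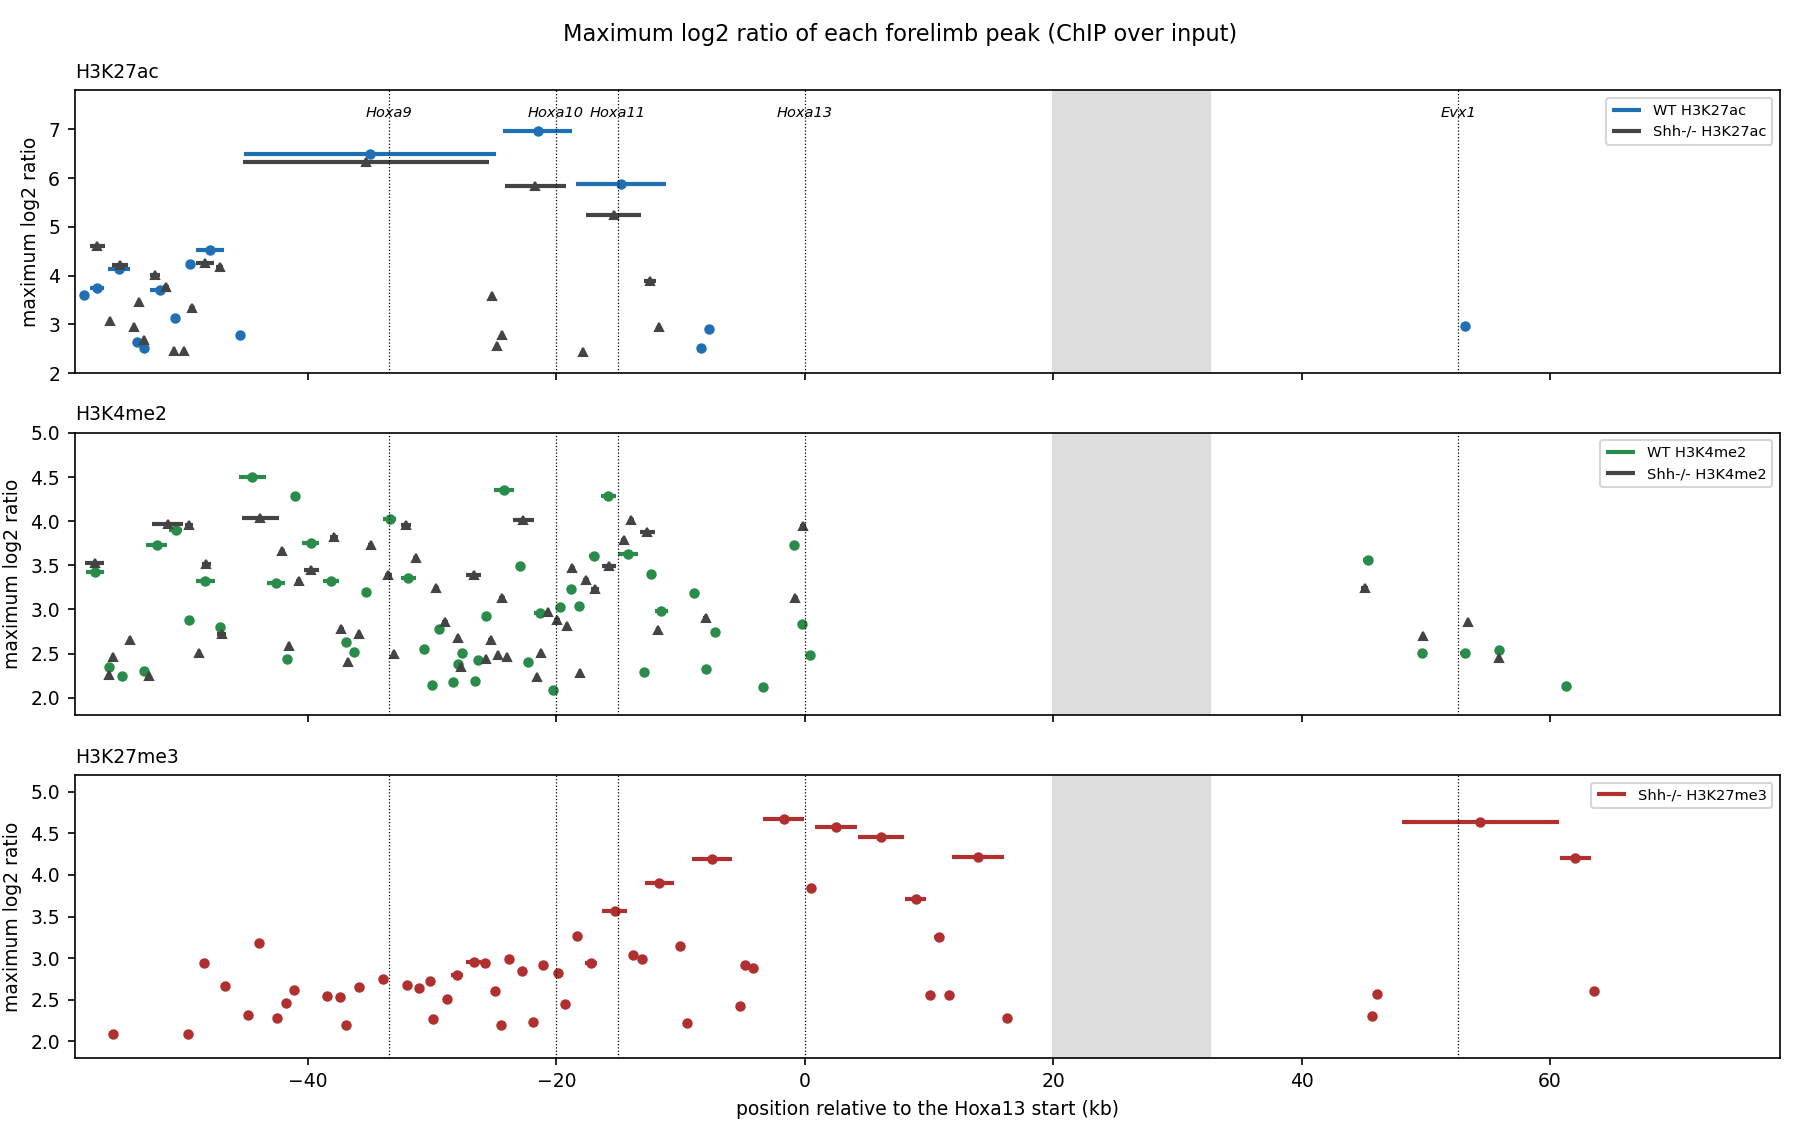
Maximum log2 ratio of ChIP to input (vertical axis, as deposited) of every forelimb peak against the distance in kb from the Hoxa13 start, in panels for H3K27ac, H3K4me2 and H3K27me3. Lines span each peak and symbols mark its middle, with circles for WT and triangles for Shh-/- in the upper panels, and dotted lines mark the main starts. H3K27ac reaches 6.98 in WT at Hoxa10, and H3K27me3 (circles, Shh-/- alone) 4.68 at Hoxa13.

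The loss of Shh was compared over the whole window by asking which peaks of one genotype no peak of the other overlapped by at least 1 bp. Of the 16 WT H3K27ac peaks 4 were found in WT alone, or 25.0% (95% Wilson interval 10.2 to 49.5%), where 48.5% of all WT H3K27ac peaks were. Of the 22 Shh-/- peaks 4 were found in Shh-/- alone, or 18.2% (7.31 to 38.5%), where 38.4% of all were. Both intervals held the share over all peaks of the list. None of the 8 was in the better-ranked 50% of its list: 0 of 10 WT peaks there (background 24.9%) and 0 of 14 Shh-/- peaks (background 17.3%) lacked a counterpart. In the poorer-ranked 50% of the lists 4 of 6 WT peaks (background 72.0%) and 4 of 8 Shh-/- peaks (background 59.4%) did. The wide WT peaks over Hoxa9, Hoxa10 and Hoxa11 shared 20000, 4900 and 5750 bp with Shh-/- peaks, so this acetylation was called in both genotypes. An overlap of 1 bp is easily met by peaks this wide. The other WT peaks of the better-ranked 50% were nearest to Hoxa3, Hoxa5 or Hoxa6. Over the whole window 37250 bp were under peaks of both genotypes, 89.1% of the WT and 96.9% of the Shh-/- base pairs. The intervals cover counting error only, and neighbouring peaks of 1 block are not independent.

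The 4 WT-only peaks were the pair between Hoxa11 and Hoxa13, the Evx1 peak, and a peak of 150 bp at chr6:52215350-52215499 in an untranslated part of a Hoxa7 exon, 151 bp from a Shh-/- peak. Of the 4 Shh-/- only peaks 2 lay in Hoxa10, beside the large peaks. The others were at chr6:52206750-52206949 and chr6:52210850-52210949 near Hoxa6, 51 and 151 bp from a WT peak. No Shh-/- only peak thus lay more than 151 bp from WT acetylation, while 3 of the 4 WT-only peaks lay 3151 bp or more from Shh-/- acetylation. Where peaks nearest to another coding gene (Hoxa3, Hoxa5, Hoxa6 or Hoxa7) were left out, 3 of 6 WT and 2 of 9 Shh-/- peaks were unshared.

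For H3K4me2, too, the intervals of both shares held the share over all peaks. Of the WT peaks 13 of 55 were found in WT alone, or 23.6% (14.4 to 36.3%), against 25.7% of all peaks of the list, and of the Shh-/- peaks 8 of 56, or 14.3% (7.42 to 25.7%), against 22.5%. In the better-ranked 50% these were 2 of 22 (background 3.58%) and 2 of 27 (background 4.02%), and in the poorer-ranked 50% 11 of 33 (47.9%) and 6 of 29 (41.0%). With peaks of an FDR under 0.05 in every list, 11 of 48 WT and 8 of 48 Shh-/- peaks were unshared. By gene and without that limit, the WT-only peaks were 7 of 29 at Hoxa9, 1 of 8 at Hoxa10, 1 of 8 at Hoxa11, 3 of 5 at Hoxa13 and 1 of 5 at Evx1. The Shh-/- only peaks were 5 of 31 at Hoxa9 and 3 of 12 at Hoxa10. They were 0 of 7 at Hoxa11, 0 of 2 at Hoxa13 and 0 of 4 at Evx1, so some of these counts rest on few peaks. One of the 3 at Hoxa10 by this nearest-start assignment, chr6:52243000-52243499 (log2 ratio 3.34, rank 15389), lay in the body of Hoxa11 and adjoined a WT peak. In base pairs the window held 35700 bp of WT and 29900 bp of Shh-/- H3K4me2, a ratio of 1.19, and 41800 and 38450 bp of H3K27ac, a ratio of 1.09. The H3K27ac ratio was below the 1.18 of the whole lists, and the H3K4me2 ratio above their 1.11.

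H3K27me3 was mapped in Shh-/- limb buds. Its peaks covered 55700 bp of the window, 45.4%. A false discovery rate (FDR) under 0.05 was held by 42 of the 57, and the others reached 0.253. Over the whole list, 9831 of 20830 peaks had an FDR under 0.05 and the highest was 0.255. Of the 22 Shh-/- H3K27ac peaks 9 overlapped H3K27me3, or 40.9% (23.3 to 61.3%), where 0.701% of all Shh-/- H3K27ac peaks did. Of the 56 H3K4me2 peaks 38 did, or 67.9% (54.8 to 78.6%), where 11.4% of all did. Both shares stood far above those of the lists, and the Shh-/- H3K27ac peaks here were also wider, with a median of 375 bp against 250 bp over the list. The H3K27ac share depended on the setting: it was 23.1% with 50 kb on either side, 77.8% without peaks nearest to other coding genes, and 18.2% where 50% of a peak had to overlap. In base pairs, 14150 of the 38450 bp under Shh-/- H3K27ac, or 36.8%, also lay under H3K27me3, and 11900 of the 29900 bp under H3K4me2, or 39.8%. Read from the other side, 33 of the 57 H3K27me3 peaks overlapped H3K4me2, or 57.9% (20.1% of all H3K27me3 peaks), and 33 of 57 overlapped H3K27ac (1.91% of all). H3K27ac and H3K4me2 also overlapped in larger shares here than over the lists: 14 of 16 WT H3K27ac peaks overlapped H3K4me2 (32.1% of all) and 18 of 22 in Shh-/- (31.5%), and 45 of 55 WT H3K4me2 peaks overlapped H3K27ac (48.9%) and 45 of 56 in Shh-/- (41.3%). Whether the marks lay in the same cells cannot be read from these lists.

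The overlap was not spread evenly. The 36 H3K27me3 peaks up to the last Shh-/- H3K27ac peak had a median width of 300 bp and a median log2 ratio of 2.67, and the highest reached 3.90. The 21 peaks beyond it had a median width of 450 bp and a median ratio of 3.14, and reached 4.68. The best rank was 1205 before and 264 after. Within the window, the H3K27me3 found together with acetylation was thus the weaker part, and that over Hoxa13, Hottip and Evx1 the stronger. Both groups lay above the medians of all 20830 H3K27me3 peaks, 150 bp and a log2 ratio of 2.41. Leaving out peaks with an FDR of 0.05 or more, 26 of the 36 and 16 of the 21 stayed. WT H3K27me3 was not analysed here, so that no change of this mark with Shh could be assessed.

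NIH3T3 cells showed a different boundary. Purmorphamine and control peaks covered 68.5% and 72.2% of the 20 kb below Hoxa9 but 0.563% and 1.97% of Hoxa9 to Hoxa10, and none of Hoxa11, Hoxa13 or Evx1. The strongest peak lay over the distal start of Hoxa3, chr6:52211100-52214799 with purmorphamine (log2 ratio 5.60, rank 91 of 87779) and chr6:52210900-52214799 without (5.14, rank 452 of 90989). The only peak in a member gene lay in Hoxa10, near its main start. It was 100 bp wide with purmorphamine, chr6:52240350-52240449, with a ratio of 2.44 and rank 68865, and 350 bp in the control, chr6:52240100-52240449, with 2.53 and rank 53262. Of the 10 purmorphamine peaks 1 had no control counterpart, or 10.0% (1.79 to 40.4%, background 36.5%), and of the 11 control peaks 0, or 0% (0 to 25.9%, background 41.1%). In the better-ranked 50% of the lists no purmorphamine peak of 7 (background 16.0%) and no control peak of 9 (16.9%) was unshared, and in the poorer-ranked 50% 1 of 3 (56.9%) and 0 of 2 (65.3%). The single unshared peak, chr6:52210550-52210649, was 100 bp wide and lay near Hoxa6. Of the base pairs 13150 were shared, 95.3% of the purmorphamine and 88.9% of the control coverage, so the lists of treated and control cells were nearly alike in this window.

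The binding motif of the GLI factors, which carry the Hedgehog response, was searched as GACCACCCA on both strands, with no mismatch. The window held 1 match, at chr6:52239880-52239888 on the plus strand, in the body of Hoxa10. It lay under WT and Shh-/- H3K27ac, WT H3K4me2 and Shh-/- H3K27me3 peaks, and under none of the other 3 lists. Of 1186 stretches of chromosome 6 of the same length 54.6% held at least 1 match, with a mean of 0.808. None of the 6 member promoters held the motif, where 0.253% of all promoters did, and none of the sequences printed above held it.

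The posterior Hoxd genes and Evx2, the counterparts of these genes on chromosome 2, were set beside them with the same rule. There 17 of 25 WT H3K27ac peaks were found in WT alone, or 68.0% (48.4 to 82.8%), an interval that held the background of 48.5%. In the better-ranked 50% these were 9 of 15 (background 24.9%). The Hoxa window had 4 of 16 and 0 of 10. Without peaks nearest to other coding genes it had 3 of 6, a limit not applied at the Hoxd genes. None of the 15 Shh-/- peaks at the Hoxd genes was unshared (background 38.4%). WT H3K27ac peaks covered 35150 bp and Shh-/- peaks 26950 bp, a ratio of 1.30 against 1.09 at the Hoxa genes. H3K27ac overlapped H3K27me3 in Shh-/- limb buds at 12 of 15 peaks, or 80.0% (54.8 to 93.0%), where 0.701% of all Shh-/- H3K27ac peaks did. The difference between the clusters was not tested. By gene, Hoxd13 and Hoxd12 had H3K27ac within 1 kb of the start in WT and not in Shh-/-, while Hoxd11, Hoxd10 and Hoxd9 had it in both. Hoxa13 had it in neither. Evx1 had it in WT alone, and Evx2 in neither.

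Around the starts (1 kb on either side), 4 of the 5 members had WT H3K27ac and 3 of 5 Shh-/- H3K27ac, against 43.3% and 40.4% of 21938 coding genes. All 5 had H3K4me2 in both genotypes (63.6% and 63.1% of coding genes) and all 5 had H3K27me3 (12.6%). In NIH3T3 cells 1 of 5 had H3K27ac, against 52.3% and 52.2%.

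All 8 limb mesenchyme genes looked at (Prrx1, Prrx2, Twist1, Msx1, Msx2, Tbx5, Lhx2 and Lhx9) had H3K27ac at the start in both limb lists. Of other cells of the bud, 0 of 8 ectoderm and 0 of 6 blood genes had it in either genotype, and 0 of 3 hindlimb genes. Endothelial genes had it at 2 of 8 starts in each genotype (Erg in both, with Cdh5 in WT and Pecam1 in Shh-/-). Among neural crest and Schwann genes, 1 of 5 had it in each genotype. Muscle precursor genes had it at 0 of 6 starts in WT and 2 of 6 in Shh-/- (Pax3 and Lbx1), and their part in any Hoxa result was not tested. In NIH3T3 cells all 8 fibroblast genes had H3K27ac, but 4 of these (Col1a2, Col3a1, Fn1 and Vim) also had it in both limb lists. Of the 8 limb mesenchyme genes, 4 (Prrx1, Prrx2, Twist1 and Lhx9) had it in both NIH3T3 lists. The gene sets thus did not fully separate limb buds from these fibroblasts.

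Finally, the coverage of 5 kb around each start in the 7 lists was compared with that of all other coding genes, by the mean absolute difference in percentage points. Closest to Hoxa13 were Six2 and Sox3 (0.571 points each) and Tesc (0.857). Closest to Evx1 were Esrp1 and Vax1 (1.00 each) and the gene T (1.35). Within the 5 kb around their starts, these 6 genes had no H3K27ac in any list, H3K4me2 over 7.00% to 24.0% and H3K27me3 over 93.0% to 100%. Hoxa11 was closest to Hoxd10 (3.79), then at a distance to Lmx1b (10.9) and Tbx5 (11.1). Hoxa10 was closest to Zic2 (8.85), Lmx1b (9.76) and Hoxa9 (10.8), and Hoxa9 to Lmx1b (9.62), Hoxa10 (10.8) and Hoxd10 (11.9). For Hoxa9 the start of the gene record was used. At its main start, Lmx1b (8.54), Tbx5 (9.52) and Msx1 (10.4) were closest. Hoxa13 and Evx1 thus had close matches among the coding genes, while the closest match of Hoxa9, Hoxa10 or Hoxa11 was at 3.79 points. Hoxa13 and Evx1 had coverage at or near 0 or 100% in most lists, where small distances are easily reached. The contrast therefore does not show which profiles are rarer.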

How the data were processed

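ChIP-seq of histone marks was performed on forelimb buds and NIH3T3 cells, with 14 ChIP and 10 input libraries in 24. Per the labels and the study's methods, reads were aligned to mm10 with Bowtie2 2.2.5 and the authors called peaks with CisGenome against input, with both replicates of a condition together. Each of the 7 deposited lists gives the position, length, rank, score, maximum log2 ratio of ChIP to input, −log10 p-value and false discovery rate (q-value) of a peak, all computed by the authors. The depth of each library is not given in the files. Positions are printed as deposited; whether they count from 0 or 1 is not stated, so they may be off by 1 bp.

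Peaks were intersected (at least 1 bp shared) with python 3.11.15, pandas 2.3.3 and numpy 2.4.6, and the overlaps were checked with bedtools 2.31.1 and on simulated data. Intervals are 95% Wilson intervals (scipy 1.17.1) and cover counting error only. A peak found in one condition alone is one with no overlapping peak at the authors' threshold, not a site that lacks the mark. Gene positions were those of GENCODE vM21 and sequences those of RefSeq GRCm38.p6, the same build as mm10. Named were the genes above, the best-ranked peaks of each list, the peaks found in one condition and the peaks at the gene starts. Genes, lists and comparisons were chosen with earlier results of these data known. Other flanks, overlaps and rank limits were tried as alternatives. WT H3K27me3 was not analysed here. Gene lists of the other Hoxa genes and of Hox cofactors are not reported here.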

Additional observations from a re-analysis of the deposited data

How the results depend on the processing

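No paired analysis was possible because the authors pooled both replicates of a condition in 1 list, which carries no replicate number, and for the same reason no replicate could be left out. For 11 results, 102 alternatives were tried. Of these, 66 values stayed within the 95% interval of a share, or within 1.5 times a length or ratio, and 36 moved beyond it. A reversal could be recorded only for the WT to Shh-/- coverage ratios, and there 0 reversed. For the shares and the length no reversal was defined. With 10 kb on either side of the genes the WT-only share of H3K27ac peaks became 50.0%, the purmorphamine-only share 0.0% and the share of Shh-/- H3K27ac peaks over H3K27me3 72.73%. With 50 kb the H3K27ac and H3K4me2 shares over H3K27me3 were 23.08% and 54.79%. Without peaks nearest to other coding genes, the WT-only H3K27ac share was 50.0%, the purmorphamine-only share 0.0%, and the shares over H3K27me3 77.78% (H3K27ac) and 80.49% (H3K4me2). With peaks within 1 kb merged these were 50.0%, 0.0%, 100.0% and 81.82%, and the Shh-/- only H3K27ac share was 0.0%. Where 50% of a peak had to overlap, the WT-only H3K4me2 share was 43.64% and the shares over H3K27me3 18.18% and 44.64%. Where peaks up to 500 bp apart were taken as overlapping, the Shh-/- only H3K27ac and purmorphamine-only shares were 0.0%, the WT-only and Shh-/- only H3K4me2 shares 7.273% and 1.786%, and the shares over H3K27me3 68.18% and 89.29%. In base pairs, the Shh-/- only H3K27ac share was 3.121%, the WT-only H3K4me2 share 36.83% and the H3K4me2 share over H3K27me3 39.8%. With the better-ranked 50% of every list, the Shh-/- only H3K27ac share was 7.143%, the WT-only H3K4me2 share 9.091% and the purmorphamine-only share 0.0%. The next were chosen after seeing the data. With the better-ranked 50% of the classified list against the whole other list, the WT-only and Shh-/- only shares were 0.0% and 0.0% for H3K27ac and 9.091% and 7.407% for H3K4me2, and the purmorphamine-only share 0.0%. With the poorer-ranked 50%, the H3K27ac shares were 66.67% and 50.0%. The cause was not tested. With the start of any transcript used, Hoxa10 had 15 WT H3K4me2, 19 Shh-/- H3K4me2 and 13 H3K27me3 peaks, and 3 of 35 counts per gene moved. Depth limits which weak peaks can be called, and the exact depth of each library is not given in the files.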
